A study of Mus musculus with 14 samples.

Results

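Macrophage marker genes were followed in mouse forelimb buds. The set held 10 genes (Cx3cr1, Csf1r, Ptprc, Aif1, Tyrobp, Fcer1g, Cd68, Lyz2, Emr1 and Mrc1), each found by its symbol among the 23284 gene symbols of the count files. The set was chosen by the measured counts of Cx3cr1, which was higher in Smad4 mutants at E10.0 (30 somites), to ask whether other macrophage genes follow it. The E10.0 comparison of genotypes is therefore a description, with no test read from it, and so are the stage values of Cx3cr1.

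Forelimb buds of 14 NMRI mouse embryos were profiled by polyA RNA-seq, with both forelimb buds of 1 embryo as 1 replicate. Smad4Δ/Δc PrxCreT/+ mutants (4 at E10.0, 30 somites; 4 at E10.5, 35 somites) were compared with Smad4+/+ PrxCreT/+ wild types (3 at each stage), so all embryos, the controls included, carried the Cre transgene. The transgene recombines in limb bud mesenchyme, and mutants also carried 1 Smad4 allele that was deleted in the whole embryo. Smad4 itself stood at 36.9 to 46.0 CPM (counts-per-million, with library sizes scaled by the TMM method) in mutants at E10.0 and at 152 to 169 CPM in wild types, and at 32.9 to 40.7 CPM against 163 to 167 CPM at E10.5.

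Tissue macrophages of the embryo derive from yolk sac and fetal liver progenitors rather than from limb mesenchyme, enter organs early with the blood and take up dying cells. They depend on the receptor tyrosine kinase CSF1R, which binds CSF1 and IL34, and many carry the fractalkine receptor CX3CR1. Their surface receptors signal through small adaptor proteins with immunoreceptor tyrosine-based activation motifs, and their lysosomes are rich in CD68 and lysozyme.

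Between 34066930 and 61691258 reads fell on genes per library and the 10 genes together took 244 to 1789 reads per embryo. The 4 libraries of mutant replicates 4 and 5 stood apart: 1.72% to 8.05% of their reads lay on the ribosomal RNA gene Rn45s, against 0.151% to 0.478% in the other 10. A gene was tested where 3 samples or more held 1 CPM or more, and was called at an adjusted p of at most 0.1 with a fold change of at least 1.2. Of the 10 genes 8 passed this filter, but Lyz2 reached 1 CPM (before TMM scaling, as the filter counts it) in 4 samples, all at E10.5, and of the samples in which Tyrobp, Fcer1g and Ptprc reached it, 5 of 6, 6 of 7 and 7 of 8 were at E10.5, so a gene passing mainly through the later stage had to differ between stages. Aif1, at 1 CPM in 0 samples, and Emr1, at 1 CPM in 1 sample, did not pass. Counts over all 10 genes are therefore given from a fit to the 18612 genes with at least 1 read, with no filter.

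Macrophage marker genes were higher at E10.5 than at E10.0 in both genotypes. In wild types, 8 of 10 rose between the stages in the fit without a filter, where 4.15% of all genes rose (6.81% changed in either direction), and 7 of 8 rose in the filtered fit, where 5.39% of genes rose (10.1% in either direction). In mutants, 9 of 10 rose without a filter, against 8.06% of all genes (14.1% in either direction), and 7 of 8 rose with it, against 10.8% (19.2%). The filtered counts include Lyz2, which passed the filter only through E10.5, and Tyrobp, Fcer1g and Ptprc, which passed mainly through it. They are therefore a description. Leaving aside Cx3cr1, the counts without a filter were 7 of 9 and 8 of 9. The median log2 fold change of the 10 genes was 1.38 in wild types and 1.12 in mutants, while that of all genes fitted lay within 0.01 of 0 in both. In bulk tissue, more cells of a type and more RNA per cell cannot be told apart.

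**Figure D1:**
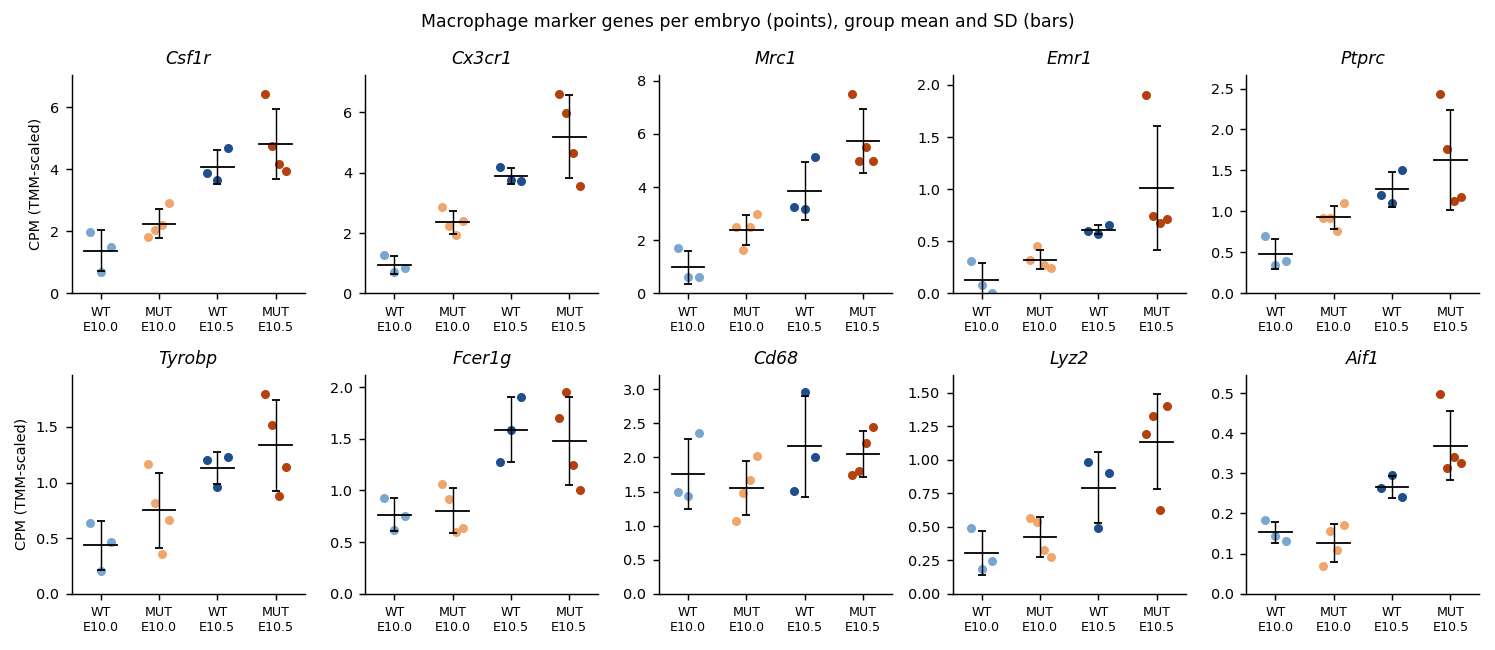
Each panel plots 1 macrophage marker gene in CPM (TMM-scaled) on a linear axis from 0, with 1 point per embryo for the wild type (WT) and Smad4 mutant (MUT) groups of each stage. Horizontal lines are group means and bars are SD, cut at 0, and for 8 of the 10 genes all WT E10.5 points lie above all WT E10.0 points, the exceptions being Cd68 and Lyz2.

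Among the receptors, Csf1r, the CSF1 and IL34 receptor, was read at 1.97, 0.675 and 1.5 CPM in the wild types at E10.0 (replicates 1 to 3) and at 3.87, 3.67 and 4.68 CPM at E10.5. All later embryos lay above all earlier ones. The log2 fold change was 1.55 (SE 0.46; edgeR exact test, Benjamini-Hochberg adjusted p = 9.98e-06). In mutants Csf1r was at 1.83, 2.04, 2.21 and 2.90 CPM at E10.0 (replicates 1, 3, 4 and 5) and at 6.44, 4.76, 4.16 and 3.94 CPM at E10.5 (replicates 1, 2, 4 and 5). The stages again did not overlap, with a log2 fold change of 1.11 (SE 0.21; edgeR exact test, Benjamini-Hochberg adjusted p = 0.000142). In the gencode vM1 annotation 871 of the 5229 exon bases of Csf1r also belong to Hmgxb3 on the other strand, and in these unstranded libraries reads from that stretch cannot be assigned to either gene.

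Mrc1, the mannose receptor, which takes up glycoproteins, was at 1.70, 0.613 and 0.616 CPM in wild types at E10.0 and at 3.27, 3.16 and 5.12 CPM at E10.5. The lowest later embryo stood well above the highest earlier one. Its log2 fold change of 1.96 (SE 0.52; edgeR exact test, Benjamini-Hochberg adjusted p = 7.85e-07) was among the higher ones of the set. The mutants held 2.50, 1.63, 2.49 and 2.98 CPM at E10.0 and 7.49, 4.98, 5.49 and 4.98 CPM at E10.5, again without overlap, for a log2 fold change of 1.26 (SE 0.23; edgeR exact test, Benjamini-Hochberg adjusted p = 0.000111).

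Emr1, which encodes the macrophage surface protein F4/80, was near the limit of detection at E10.0. Wild types held 17 reads or fewer, at 0.311, 0.0818 and 0 CPM, and the 0 in replicate 3 allows up to 3 reads, or 0.0646 CPM before scaling, for counting error only. At E10.5 they held 0.601, 0.570 and 0.657 CPM, all above the earlier embryos. In mutants Emr1 was at 0.325, 0.450, 0.273 and 0.246 CPM at E10.0 and at 1.90, 0.742, 0.679 and 0.716 CPM at E10.5. In the fit without a filter Emr1 rose by a log2 fold change of 2.15 in wild types (SE 0.88; edgeR exact test, Benjamini-Hochberg adjusted p = 0.00745) and of 1.63 in mutants (SE 0.38; adjusted p = 0.00437). The wild-type call was lost without wild type E10.0 replicate 2 (log2 fold change 1.89, adjusted p = 0.118) or replicate 3 (log2 fold change 1.60, adjusted p = 0.109).

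Ptprc, the CD45 phosphatase carried by leukocytes, was at 0.694, 0.348 and 0.396 CPM in wild types at E10.0 and at 1.2, 1.10 and 1.51 CPM at E10.5. Those groups did not overlap, and the log2 fold change was 1.39 (SE 0.31; edgeR exact test, Benjamini-Hochberg adjusted p = 0.000990). Mutants were at 0.924, 0.918, 0.765 and 1.11 CPM at E10.0 and at 2.44, 1.76, 1.13 and 1.17 CPM at E10.5, again without overlap. The mutant log2 fold change was 0.83 (SE 0.28; edgeR exact test, Benjamini-Hochberg adjusted p = 0.0157), and without mutant E10.5 replicate 1 it was 0.57 and no longer passed (adjusted p = 0.147). Without a filter the adjusted p of Ptprc was 0.00151 in wild types and 0.0256 in mutants (edgeR exact test, Benjamini-Hochberg).

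The stage values of Cx3cr1, the fractalkine receptor, include the E10.0 embryos on which the gene was picked. Wild types stood at 1.26, 0.695 and 0.836 CPM at E10.0 and at 4.2, 3.75 and 3.72 CPM at E10.5, a 4.15-fold difference. Mutants stood at 2.86, 2.23, 1.94 and 2.41 CPM at E10.0 and at 6.61, 5.97, 4.67 and 3.55 CPM at E10.5, a 2.21-fold difference. Neither genotype had overlapping stages.

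The adaptor genes rose in both genotypes with smaller margins between embryos. Tyrobp, which encodes the adaptor DAP12, was at 0.640, 0.204 and 0.462 CPM in wild types at E10.0 and at 1.2, 0.962 and 1.23 CPM at E10.5 (log2 fold change 1.36, SE 0.45; edgeR exact test, Benjamini-Hochberg adjusted p = 0.00997). Mutant embryos held 1.16, 0.814, 0.355 and 0.664 CPM at E10.0 and 1.80, 1.52, 0.877 and 1.14 CPM at E10.5, and here the stages overlapped. The mutant difference passed the threshold (log2 fold change 0.82, SE 0.40; edgeR exact test, Benjamini-Hochberg adjusted p = 0.0482), but it did not pass with edgeR's quasi-likelihood test (adjusted p = 0.103), nor without mutant replicate 4 or 5 at E10.0 (log2 fold change 0.61 and 0.76, adjusted p = 0.187 and 0.119) or mutant replicate 1 or 2 at E10.5 (0.64 and 0.76, adjusted p = 0.195 and 0.128). In wild types Tyrobp lost its call without E10.0 replicate 2 (log2 fold change 1.02, adjusted p = 0.186). Without a filter the adjusted p of Tyrobp was 0.0183 in wild types and 0.0850 in mutants (edgeR exact test, Benjamini-Hochberg), and the mutant call was then also lost without mutant E10.0 replicate 3 or wild type E10.5 replicate 1 or 3.

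Fcer1g, the gamma chain shared by Fc receptors, was at 0.932, 0.613 and 0.748 CPM in wild types at E10.0 and at 1.27, 1.59 and 1.90 CPM at E10.5, with no overlap. Its log2 fold change was 1.05 (SE 0.23; edgeR exact test, Benjamini-Hochberg adjusted p = 0.00888), and the call was lost without wild type E10.0 replicate 2 (0.91, adjusted p = 0.137) or E10.5 replicate 3 (0.91, adjusted p = 0.115). Mutants went from 1.06, 0.918, 0.601 and 0.639 CPM to 1.71, 1.95, 1.25 and 1.01 CPM, where the lowest later embryo lay under the highest earlier one. The mutant log2 fold change was 0.87 (SE 0.28; edgeR exact test, Benjamini-Hochberg adjusted p = 0.00566). Without a filter the adjusted p of Fcer1g was 0.0122 in wild types and 0.0100 in mutants (edgeR exact test, Benjamini-Hochberg).

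Of the lysosomal genes, Lyz2 rose and Cd68 did not pass. Lyz2, a lysozyme with a close paralogue in Lyz1 whose shared reads may be split or lost when only unique alignments are counted, was at 0.493, 0.184 and 0.242 CPM in wild types at E10.0 and at 0.985, 0.491 and 0.897 CPM at E10.5. The lowest later embryo, replicate 2, lay just under the highest earlier one, replicate 1. In the fit without a filter, used here because Lyz2 passed the filter only through E10.5, the log2 fold change was 1.34 (SE 0.47; edgeR exact test, Benjamini-Hochberg adjusted p = 0.0317). That call was lost on leaving out wild type replicate 2 or 3 at E10.0 or replicate 1 or 3 at E10.5. In mutants Lyz2 went from 0.564, 0.537, 0.328 and 0.271 CPM to 1.19, 1.33, 0.623 and 1.40 CPM without overlap (log2 fold change without a filter 1.38, SE 0.35; edgeR exact test, Benjamini-Hochberg adjusted p = 0.00102).

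Cd68, which encodes a glycoprotein of late endosomes and lysosomes, stood at 1.5, 1.43 and 2.36 CPM in wild types at E10.0 and at 1.51, 2.97 and 2.01 CPM at E10.5. In mutants it was at 1.06, 1.47, 1.67 and 2.02 CPM and then at 1.74, 1.80, 2.21 and 2.44 CPM. The stages overlapped in both genotypes. The log2 differences were 0.31 (SE 0.36; edgeR exact test, Benjamini-Hochberg adjusted p = 0.597) and 0.40 (SE 0.22; adjusted p = 0.292). Cd68 was thus the member that missed the threshold in both genotypes, and a p that misses it does not show that the level was the same.

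Aif1, which encodes the actin-binding protein IBA1, had few reads, 4 to 28 per embryo. Its wild-type levels were 0.183, 0.143 and 0.132 CPM at E10.0 and 0.264, 0.295 and 0.241 CPM at E10.5. Although these did not overlap, the log2 difference of 0.80 (SE 0.13) did not pass without a filter (edgeR exact test, Benjamini-Hochberg adjusted p = 0.413). Mutant levels were 0.0684, 0.156, 0.109 and 0.172 CPM, then 0.498, 0.312, 0.340 and 0.326 CPM, and the log2 fold change of 1.57 (SE 0.26; adjusted p = 0.00113) passed.

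Stage groups did not overlap, with all later embryos higher, for 8 of 10 genes in wild types and 7 of 10 in mutants, where 16.6% and 11.1% of the tested genes were separated in that direction. Over all 10 genes, leaving out wild type E10.0 replicate 2, the embryo with the lowest summed level, left 4 called in wild types (Cx3cr1, Csf1r, Ptprc and Mrc1) in place of 8, and leaving out wild type E10.5 replicate 3 left 5. Over all genes tested with the filter, the count called in wild types fell as well, from 1256 to 484 and to 512. With the samples of replicate numbers 1 to 3 alone, the 4 libraries that stood apart are dropped. With the filter 7 of 8 genes then rose in wild types and 6 of 8 in mutants, where 14.9% and 17.5% of all genes were called in either direction. These filtered counts too include genes that passed mainly through E10.5.

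The genotypes were next compared at E10.5, with embryos that took no part in picking Cx3cr1. None of the 10 genes passed the test between mutants and wild types: edgeR's exact test called 0, and 0 had an unadjusted p under 0.05, while 1.61% of all genes were called higher and 2.72% in either direction. With the filter 0 of 8 were called, against 2.19% of genes higher and 3.73% in either direction, and edgeR's quasi-likelihood test and DESeq2 called 0 as well. The point estimates were above 0 for 8 of 10 genes, with a median log2 difference of 0.41 without a filter, and below 0 for Fcer1g and Cd68.

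Cx3cr1 at E10.5 was 6.61, 5.97, 4.67 and 3.55 CPM in mutants and 4.2, 3.75 and 3.72 CPM in wild types, so that mutant replicate 5 lay under all wild types and the other mutants above them. The log2 difference was 0.43 (SE 0.21; edgeR exact test, Benjamini-Hochberg adjusted p = 0.505). When mutant replicates 4 and 5, which stood apart by their ribosomal RNA, were left out at both stages, 2 mutants remained at E10.5, the log2 difference of Cx3cr1 was 0.70 and it passed (edgeR exact test, Benjamini-Hochberg adjusted p = 0.0396) as 1 of 8 genes tested, where 4.27% of all genes were called in either direction. The part that these libraries have in the result was not tested.

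Mrc1 had the largest log2 difference at E10.5 among the 8 genes that passed the filter, 0.58 (SE 0.26; edgeR exact test, Benjamini-Hochberg adjusted p = 0.498), and its groups overlapped only through wild type replicate 3 at 5.12 CPM, which lay above 2 mutants at 4.98 CPM. For Csf1r, Ptprc and Tyrobp the log2 differences were 0.25 (SE 0.19), 0.38 (SE 0.29) and 0.26 (SE 0.25), and for Lyz2 it was 0.53 (SE 0.39). Fcer1g and Cd68 differed by -0.08 (SE 0.27) and -0.10 (SE 0.30). Aif1 and Emr1, the 2 genes that did not pass the filter, were those in which all mutants lay above all wild types at E10.5, which 6.59% of the tested genes did, but neither was called without a filter (log2 differences 0.49, SE 0.16, and 0.75, SE 0.35; edgeR exact test, Benjamini-Hochberg adjusted p = 0.895 and 0.751). Without mutant replicate 1 the Emr1 difference was 0.23.

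At E10.0, where Cx3cr1 was picked, the genotypes are described only. Mean levels in mutants and wild types were 2.36 ± 0.38 (SD, n = 4) and 0.931 ± 0.294 CPM (SD, n = 3) for Cx3cr1, a 2.53-fold difference, and 2.40 ± 0.56 and 0.976 ± 0.626 CPM for Mrc1, a 2.42-fold difference. Ptprc stood at 0.928 ± 0.140 and 0.479 ± 0.188 CPM. For completeness, the rule used for the other comparisons marks these 3 genes as higher, among 10 in the fit without a filter (2.65% of all genes higher, 4.28% in either direction) and among 8 with it (3.33% and 6.61%), or 2 of 9 and 2 of 7 with Cx3cr1 left aside, and nothing is read from these counts. Cx3cr1 and Ptprc were the genes whose genotypes did not overlap, a separation seen in 8.07% of tested genes.

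For Csf1r, Tyrobp, Lyz2 and Emr1 the mutant means at E10.0 were the higher ones, with overlapping embryos. Csf1r stood at 2.25 ± 0.46 against 1.38 ± 0.66 CPM, Tyrobp at 0.749 ± 0.336 against 0.435 ± 0.219 CPM and Lyz2 at 0.425 ± 0.147 against 0.307 ± 0.164 CPM. Emr1 was at 0.324 ± 0.091 against 0.131 ± 0.161 CPM. Fcer1g was at 0.805 ± 0.221 against 0.765 ± 0.160 CPM, while Cd68 (1.55 ± 0.40 against 1.76 ± 0.52 CPM) and Aif1 (0.126 ± 0.047 against 0.153 ± 0.027 CPM) had lower mutant means. The count of 3 fell to 1, Cx3cr1, without wild type E10.0 replicate 3, and without a filter it was 5 without wild type E10.0 replicate 1. Over all genes tested with the filter, leaving out these embryos took the count from 819 to 254 and to 570.

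**Figure D2:**
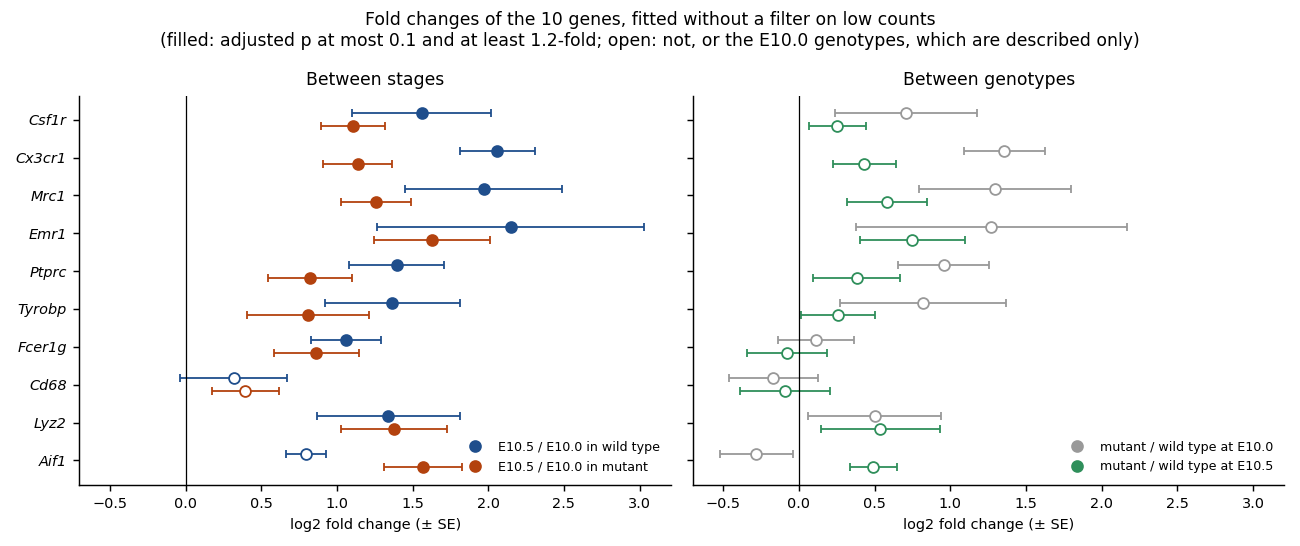
Points are log2 fold changes of the 10 genes from the fit without a filter on low counts, between stages in each genotype (left) and between mutant and wild type at each stage (right), and horizontal bars are SE. Filled points passed an adjusted p of at most 0.1 with at least a 1.2-fold change: 8 of 10 in wild types and 9 of 10 in mutants between stages, and 0 of 10 between genotypes at E10.5. All points of the genotypes at E10.0 are open, since that comparison is described only.

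Whether the stage difference itself depended on genotype was asked with an interaction term. No macrophage gene was called: edgeR's quasi-likelihood test found 0 of 10 without a filter, where 0.21% of all genes were called, and 0 of 8 with it (0.186%), and DESeq2 found 0. At an unadjusted p under 0.05 there was 1, Cx3cr1, whose E10.0 values had chosen it. The 2 stage comparisons and the 2 genotype comparisons share their samples, so their values are given side by side and not as separate evidence.

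Summed over the 10 genes, wild types at E10.0 held 9.69, 4.99 and 7.29 CPM and mutants 12.3, 11.2, 10.7 and 13.4 CPM. At E10.5 the sums were 18.4, 18.6 and 22.0 CPM in wild types and 31.8, 25.1, 21.4 and 20.7 CPM in mutants. The later embryos of either genotype lay above all earlier ones of both. Within the wild types at E10.0 replicate 1 was high and replicate 2 low, and in the mutants at E10.5 replicate 1 was the highest. The ratio of Cx3cr1 reads to Csf1r reads, which does not depend on library scaling, had medians of 0.639 in wild types and 0.985 in mutants at E10.0 and of 1.02 and 1.08 at E10.5, and its ranges overlapped between genotypes at both stages (0.559 to 1.03 against 0.831 to 1.56, and 0.794 to 1.09 against 0.901 to 1.25).

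Correlations between the genes were read over all embryos, where they include the stage difference, and with the mean of each group subtracted. Over the 14 embryos, log-scale Pearson correlations of the 36 pairs without Cd68 ran from 0.69 to 0.95 (median 0.83), and those of the 9 pairs with Cd68 from 0.055 to 0.45 (median 0.19). With the mean of each group subtracted, the pairs without Cd68 ran from -0.095 to 0.80 (median 0.54), and 1 of 36 was below 0. Those with Cd68 then ran from -0.56 to 0.095 (median -0.36), and 7 of 9 were below 0. These are descriptions over 14 samples that share libraries and depth.

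**Figure D3:**
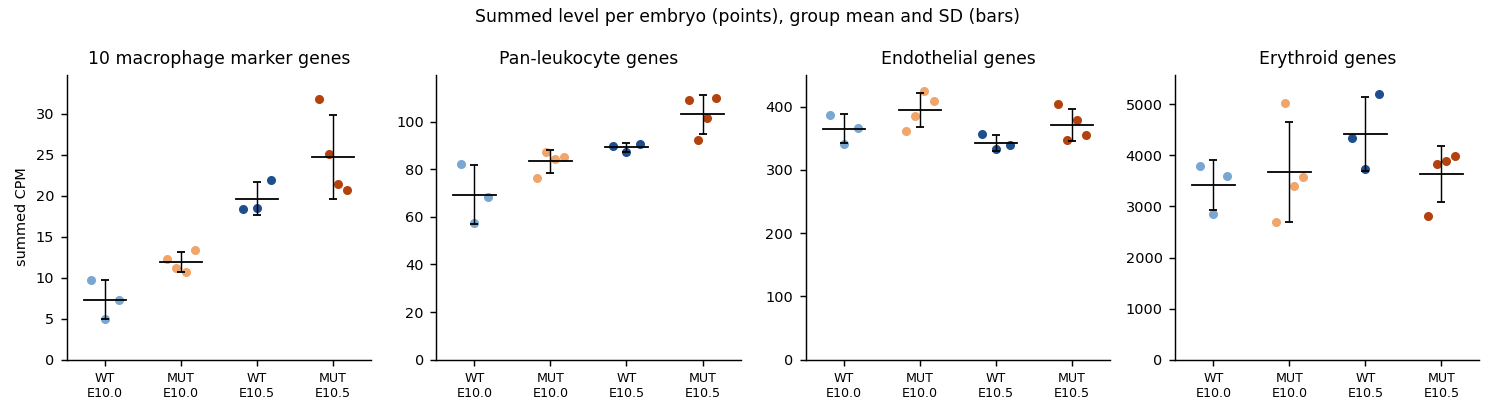
Summed CPM (TMM-scaled, linear axes from 0) per embryo for the 10 macrophage marker genes and for lists of pan-leukocyte, endothelial and erythroid genes, in wild type (WT) and mutant (MUT) forelimb buds at both stages, with group means as lines and SD as bars. The macrophage sums run from 4.99 to 13.4 at E10.0 and from 18.4 to 31.8 at E10.5 with no overlap, while the endothelial and erythroid sums of the stages overlap.

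Levels were compared between genes only per length, as CPM per kb of annotated exon. In wild types at E10.5 the adaptor genes Tyrobp and Fcer1g led, at 2.0 ± 0.26 and 1.99 ± 0.39 (SD, n = 3), followed by Cd68 (1.72 ± 0.59), Cx3cr1 (1.04 ± 0.07), Csf1r (0.779 ± 0.102), Mrc1 (0.647 ± 0.185) and Lyz2 (0.603 ± 0.201). Ptprc (0.218 ± 0.037), Emr1 (0.188 ± 0.014) and Aif1 (0.174 ± 0.018) were lowest. Neighbours in that order overlapped between embryos except at 3 steps, from Cd68 to Cx3cr1, from Cx3cr1 to Csf1r and from Lyz2 to Ptprc. At E10.0 the wild types had Cd68 first at 1.40 ± 0.41, then Fcer1g at 0.956 ± 0.200 and Tyrobp at 0.772 ± 0.388, with Csf1r and Cx3cr1 near 0.25, and all neighbours overlapped.

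**Figure D4:**
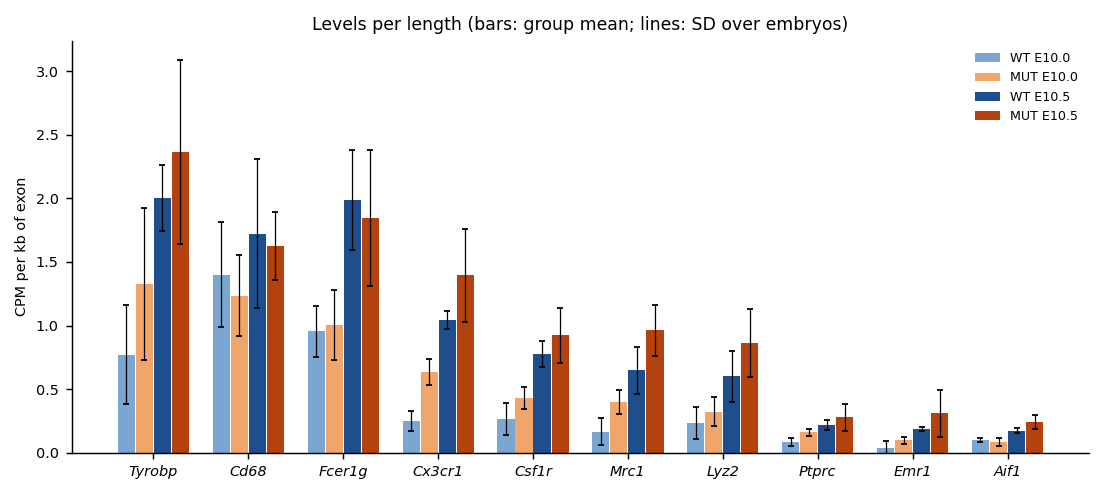
Bars are group means of CPM per kb of annotated exon for the 10 macrophage marker genes on a linear axis from 0, in the wild type (WT) and mutant (MUT) groups of each stage, and lines are SD over embryos. Tyrobp, Cd68 and Fcer1g are the highest genes, and Cd68 changes least between the stages in relation to its level.

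The promoters of the set, Cd68 included, were read for the core sequence of PU.1, the ETS factor of myeloid cells. RefSeq promoter windows (GRCm38.p6, another build than the mm9 of the counts) matched 7 of the 10 genes, and none was given here for Csf1r, Tyrobp or Emr1. On mm9, gencode vM1 places Mrc1 at chr2:14151041-14253684 (plus strand), Lyz2 at chr10:116714390-116719377 (minus strand) and Cx3cr1 at chr9:119957811-119977400 (minus strand). The 250 bases before the annotated start on GRCm38.p6, 5′ to 3′ in the direction of the gene, are shown for Mrc1 and Lyz2, which rose between the stages and hold the core, and for Cx3cr1, which does not. Capitals mark AGGAAG or its reverse complement.

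Mrc1, chr2:14229164-14229413, + strand: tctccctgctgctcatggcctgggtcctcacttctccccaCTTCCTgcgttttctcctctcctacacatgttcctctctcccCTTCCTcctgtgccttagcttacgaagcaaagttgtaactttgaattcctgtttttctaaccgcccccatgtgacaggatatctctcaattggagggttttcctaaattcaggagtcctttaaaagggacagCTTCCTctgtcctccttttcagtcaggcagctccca

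Lyz2, chr10:117282273-117282522, - strand: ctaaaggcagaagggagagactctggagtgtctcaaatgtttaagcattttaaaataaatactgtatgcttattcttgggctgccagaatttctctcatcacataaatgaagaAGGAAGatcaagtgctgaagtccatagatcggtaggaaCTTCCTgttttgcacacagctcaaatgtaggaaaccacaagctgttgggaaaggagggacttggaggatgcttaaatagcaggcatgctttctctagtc

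Cx3cr1, chr9:120068297-120068546, - strand: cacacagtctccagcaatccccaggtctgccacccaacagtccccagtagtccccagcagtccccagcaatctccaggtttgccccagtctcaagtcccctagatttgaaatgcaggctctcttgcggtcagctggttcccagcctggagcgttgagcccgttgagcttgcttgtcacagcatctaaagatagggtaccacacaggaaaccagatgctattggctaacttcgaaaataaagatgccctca

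AGGAAG, on either strand, occurred in this window in 4 of the 7 genes (Ptprc, Fcer1g, Mrc1 and Lyz2) and in 29.5% of all 32851 promoter windows of that length. The first count is per gene, and Ptprc had several windows, while the share is per window. The longer GAGGAAGT, which contains the core, occurred in 0 of 7 and in 2.44% of windows. A match describes these letters only, and its absence from the window says nothing about the factor.

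Other genes of the macrophage lineage were taken as lists. Of 24 further macrophage surface, complement and Fc receptor genes, 23 could be fitted without a filter. Between the stages 8 of 23 rose in wild types, where 4.15% of all genes fitted rose. In mutants 10 of 23 rose, where 8.06% of all genes did, and 0 fell in either genotype. The median log2 fold changes were 0.97 and 1.05. Values of single genes are from the filtered fit. There C1qc, Ctss, Mpeg1 and Fcgr3, at 0.710 CPM or lower in all E10.0 embryos, passed the filter only through E10.5. They had to differ between stages, so their values are a description. Among complement genes, C1qb went from 0.544 ± 0.374 to 1.52 ± 0.12 CPM in wild types (log2 fold change 1.46, SE 0.51; edgeR exact test, Benjamini-Hochberg adjusted p = 0.000443). It too had means under 1 CPM at E10.0. C1qc rose by 2.02 (SE 0.30) in wild types. In mutants C1qb and C1qc rose by 1.42 and 1.33. Ctss, a lysosomal cysteine protease, rose by 2.15 (SE 0.57) in wild types and 2.28 (SE 0.28) in mutants, and Mpeg1, the pore-forming perforin-2, by 1.69 and 2.10. Fcgr3, an Fc receptor, rose by 1.84 and 1.72. Stab1, a scavenger receptor and the most abundant gene of the list, did not pass in either genotype, with log2 differences of -0.08 in wild types and -0.30 in mutants (edgeR exact test, Benjamini-Hochberg adjusted p = 0.853 and 0.172). At E10.5 0 of 23 differed between genotypes, where 2.72% of all genes fitted were called. With replicates 1 to 3 alone 2 of 6 tested did, where 4.27% of all genes were called.

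Pan-leukocyte genes followed in part. Of 10 tested with the filter, 6 rose between the stages in wild types and 4 in mutants, and 0 fell. Of all genes tested 5.39% and 10.8% rose. Cd53, with at most 0.713 CPM in any embryo at E10.0, passed the filter only through E10.5. Without a filter 7 of 13 rose in wild types and 3 of 13 in mutants, where 4.15% and 8.06% of all genes did. Coro1a, a leukocyte actin regulator, rose by a log2 fold change of 0.68 in wild types and 0.48 in mutants (edgeR exact test, Benjamini-Hochberg adjusted p = 8.24e-05 and 0.00131), and Laptm5, a lysosomal protein of blood cells, by 0.73 and 0.65 (adjusted p = 0.00330 and 0.00102). Lcp1, the most abundant of them at a mean of 31.7 CPM, rose in mutants by 0.37 and was at 0.24 in wild types (edgeR exact test, Benjamini-Hochberg adjusted p = 0.0802 and 0.464). The sum of the list ran from 57.5 to 82.2 CPM at E10.0 and from 87.2 to 90.8 CPM at E10.5 in wild types, and from 76.5 to 87.4 and from 92.2 to 109.8 CPM in mutants, with no overlap between stages in either. At E10.5 0 of 10 differed between genotypes, where 3.73% of all genes tested were called.

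Of the ligands, Csf1 stood at 4.95 ± 0.45, 4.78 ± 0.56, 4.62 ± 0.33 and 4.87 ± 0.31 CPM in mutants and wild types at E10.0 and mutants and wild types at E10.5. Cx3cl1, the CX3CR1 ligand, stood at 2.40 ± 0.43, 2.68 ± 0.50, 2.91 ± 0.41 and 3.02 ± 0.78 CPM in that order. Neither was called in any of the 4 comparisons, and Il34, at a mean of 0.0378 CPM, was not tested.

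Myeloid transcription factors were called in both directions. Of 8 tested, 1 rose in wild types between the stages and 3 rose and 1 fell in mutants. Of all genes tested 5.39% rose in wild types, and 10.8% rose and 8.4% fell in mutants. Maf rose in both, by log2 fold changes of 0.63 and 0.90 (edgeR exact test, Benjamini-Hochberg adjusted p = 0.0141 and 8.59e-07). Irf5 was lower in mutants at E10.5, with a log2 fold change of -1.55 (SE 0.22; edgeR exact test, Benjamini-Hochberg adjusted p = 1.38e-06), at 0.969 ± 0.239 CPM (SD, n = 4) against 2.86 ± 0.55 CPM (SD, n = 3).

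Genes for the clearance of dying cells, which macrophages share with mesenchyme, moved both ways. Between the stages 10.1% of all genes tested were called in wild types and 19.2% in mutants. Of 8 tested, Mertk and Axl, receptors for bound phosphatidylserine, rose between the stages in wild types, by 0.33 and 0.46, and in mutants, by 0.56 and 0.45, and Tyro3, of the same receptor family, rose in mutants by 0.39, while their bridging ligand Pros1 fell by 0.43 and by 0.54 on the log2 scale (edgeR exact test, Benjamini-Hochberg adjusted p from 6.78e-07 to 0.0833). Mertk was also higher in mutants at E10.5, at 45.9 ± 1.3 against 34.9 ± 1.3 CPM (log2 fold change 0.39, SE 0.04; edgeR exact test, Benjamini-Hochberg adjusted p = 0.0305). It was 1 of 8 tested, where 2.19% of all genes were higher.

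Markers of other cells that the buds hold did not rise with the macrophage genes as lists. Between the stages 5.39% of all genes tested rose and 4.74% fell in wild types. In mutants 10.8% rose and 8.4% fell, and the counts of these short lists are to be read beside those shares. Of 10 endothelial genes 0 rose and 1 fell in wild types and 2 fell in mutants between the stages, with median log2 differences of -0.18 and -0.12 and summed levels of 341 to 386 and 333 to 357 CPM in wild types and 362 to 424 and 348 to 403 CPM in mutants. Of 7 erythroid genes tested 0 were called in either, with sums of 2861 to 3791 and 3742 to 5191 CPM in wild types and 2696 to 5031 and 2816 to 3985 CPM in mutants, and the adult globin symbols Hba-a1, Hba-a2, Hbb-b1 and Hbb-b2 were listed at 0 reads in all 14 libraries. These are near-identical duplicated genes whose reads may be lost when only unique alignments are counted, so the 0 does not show that they were absent. Megakaryocyte genes had 1 of 5 called in mutants (Ppbp, 0.60) and 0 in wild types, and the granulocyte and mast cell list had 0 of 3 in both, with 8 of its 11 genes, S100a8, S100a9 and Elane among them, at a mean of 0.0562 CPM or lower. Among 7 forelimb mesenchyme genes 1 rose in wild types and 2 rose and 1 fell in mutants, and Tbx5, a forelimb gene, and Prrx1 stood at means of 116 and 712 CPM. Of the 2 hindlimb genes, Pitx1 was at 0.101 CPM, but Tbx4 was at 7.37 CPM and rose between the stages in both genotypes. Of 5 limb ectoderm genes 0 were called in wild types and 1 rose and 1 fell in mutants.

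Genotypes were also compared over the other lists, and these short counts are to be read beside the shares of all genes. For the earlier stage, 3.33% of all genes tested with the filter were higher in mutants and 3.28% were lower. Without a filter these shares were 2.65% and 1.62%. For the later stage, 2.19% of all genes tested with the filter were higher in mutants and 1.54% were lower. At E10.0, given as a description, mutants were higher for 4 of 23 further macrophage genes without a filter and for C1qc of 7 with it, for Arhgdib and Plek of 10 pan-leukocyte genes, for Kit of 3 granulocyte and mast cell genes and for Tbx15 of 7 mesenchyme genes. They were lower for Irf5 among the myeloid transcription factors, for Esam of 10 endothelial genes (without a filter 0 of these were lower and 1 higher), for Krt5 of 5 ectoderm genes and for Prrx1, Twist1, Tbx5 and Prrx2 of the mesenchyme genes, and the clearance, erythroid and megakaryocyte lists had 0 called. At E10.5 the endothelial, erythroid, megakaryocyte, granulocyte and ectoderm lists had 0 called with edgeR's exact test, and of the mesenchyme genes Tbx15 was higher and Prrx1, Twist1 and Prrx2 were lower in mutants.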

How the data were processed

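Forelimb bud RNA was sequenced as unstranded single reads of polyA libraries. Per the labels and methods, the authors aligned reads to mm9 with TopHat2 (version 2.0.13) and kept unique alignments, and HTSeq counted them. The deposited files hold raw read counts per gene symbol, with 5 counter rows left out here. Genes on chromosomes X, Y and M (1041 symbols) were removed, and 12393 genes with 1 CPM or more in 3 samples or more were tested. After TMM scaling (factors 0.934 to 1.04), edgeR's exact test (edgeR 4.0.16, R 4.3.3; prior degrees of freedom 10) compared groups with dispersions from all 14 samples, the quasi-likelihood test gave the interaction, and p-values were adjusted by Benjamini-Hochberg over all genes. SE comes from the replicate variances of log2 CPM (prior count 2). DESeq2 1.42.0, other filters and scalings, a replicate block and leaving out samples were alternatives. The procedure was tested on simulated data. Deviations from group means correlated at 0.269 to 0.611 between same-numbered mutants of the 2 stages, and at -0.587 to 0.383 between unlike-numbered ones. The highest unlike pair was replicates 4 and 5, the lowest replicates 1 and 4. As these ranges overlap, pairing by number was not established. In the other comparisons same-numbered samples correlated at -0.283 to 0.174. The replicate block left 7 macrophage genes called between mutant stages, among 2586 called over all genes. Depth, at 34066930 to 61691258 reads on genes, limits genes with few reads.

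All 10 macrophage genes were named. From each further list, the called genes and at most the 4 with the highest mean CPM could be named, besides Smad4, Rn45s and the 10 genes most like the set; the adult globins, the granulocyte genes with the lowest levels and Pitx1 were named for their zero or low counts after their values were seen. The genes and lists were chosen with earlier results of these data known. Figures were drawn with matplotlib 3.10.9. Each embryo is 1 sample, and no columns of other samples were present. Spi1 was matched to the older symbol Sfpi1. Some genes of the further lists are counted but not reported here by name.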

Additional observations from a re-analysis of the deposited data

Results flagged for a closer look

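In the 4 mutants at E10.5, replicate 1 was far from the other 3 for Aif1, at 0.498 CPM, and for Emr1, at 1.90 CPM. The gap to the nearest embryo was 0.852 and 0.949 of the range of the group, above the critical value of Dixon's test for 4 samples. Of 22 groups of 4 values tested 2 passed this limit, and chance alone gives about 5%. Without that embryo the log2 fold change of Emr1 was 0.23 in place of 0.75 between genotypes at E10.5 and 1.10 in place of 1.63 between stages in mutants, and that of Aif1 was 0.28 in place of 0.49 and 1.36 in place of 1.57, in the fit without a filter. The same embryo had the highest summed level of the 10 genes, 31.8 CPM.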

How the results depend on the processing

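Over all alternatives Csf1r and Mrc1 passed in both stage comparisons, and leaving out single samples gave log2 fold changes of 0.95 to 1.26 and 1.11 to 1.38 in mutants and of 1.23 to 1.91 and 1.71 to 2.64 in wild types. The macrophage genes called at E10.0, a description only, were 3, with 1 to 4 over the fits without single samples (1 without wild type replicate 3), and 4 with replicates 1 to 3 alone. Over all genes the counts were 819, 254 to 1062 and 2018 (16.4%). At E10.5 the count was 0 in all fits but that with only replicates 1 to 3, which called 1 (Cx3cr1), where 4.27% of all genes were called. Between stages it was 7 in wild types (4 to 7 without single samples, 4 without wild type E10.0 replicate 2) and 7 in mutants (5 to 7, 5 without mutant E10.5 replicate 1). Over all genes, leaving out single samples gave 484 to 1515 in wild types and 1895 to 2732 in mutants. For the interaction it was 0 throughout. Requiring 1 CPM in 7 samples gave 5 in each stage comparison, since Lyz2 and Tyrobp were no longer tested. Over all genes it gave 1183 in wild types and 2269 in mutants.

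With the replicate block the counts were 4 at E10.0, 0 at E10.5, 7 and 7 between stages and 0 for the interaction. Over all genes the block called 1961, 280, 1754, 2586 and 18 in that order, in place of 819, 462, 1256, 2374 and 23. Nothing is read from the count at E10.0. Fcer1g at E10.5 turned to 0.22 with the block and to 0.21 with only replicates 1 to 3, from -0.08. Without single samples the log2 fold change of Fcer1g ran from -0.24 to 0.072 at E10.5 and from -0.060 to 0.27 at E10.0, and that of Cd68 from -0.29 to 0.21 and from -0.34 to 0.082. The cause was not tested.

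Genes called over all genes moved as well: at E10.0 from 819 to 2018 with only replicates 1 to 3, to 1961 with the block and to 254 without wild type replicate 3; at E10.5 from 462 to 280 with the block; between stages in wild types from 1256 to 1989 with the groups fitted apart and to 484 without wild type E10.0 replicate 2; for the interaction from 23 to 87 with DESeq2, to 39 with no filter, to 6 with only replicates 1 to 3 and to 7 to 34 without single samples. Depth limits Aif1 and Emr1, with as few as 4 and 0 reads in an embryo. The counts over all genes, the fits without a filter that leave out samples and the lists with replicates 1 to 3 alone were added after seeing the data.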

Other observations

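Rag1, a recombinase gene known from lymphocytes, was the called gene of the lymphoid list. It stood at 1.96 ± 0.66 CPM (SD, n = 4) in mutants and 0.941 ± 0.490 CPM (SD, n = 3) in wild types at E10.0, and at 5.60 ± 0.78 and 2.31 ± 0.52 CPM at E10.5. It was higher in mutants at E10.5 (log2 fold change 1.28, SE 0.22; edgeR exact test, Benjamini-Hochberg adjusted p = 0.00348) and rose with stage in wild types (1.29, SE 0.56; adjusted p = 0.00657) and mutants (1.52, SE 0.31; adjusted p = 5.60e-06). The other gene tested, Cd79b, was not called, and Cd3e and Cd3g, which define T cells, were at means of 0.006 and 0.005 CPM, so Rag1 was 1 gene and not the list.

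The hindlimb gene Tbx4 was higher at E10.5 in wild types, by 1.26 on the log2 scale (SE 0.49; edgeR exact test, Benjamini-Hochberg adjusted p = 0.000894), and in mutants, by 1.79 (SE 0.27; adjusted p = 3.03e-10), and stood at 13.5 ± 1.7 CPM in mutants and 7.80 ± 1.0 CPM in wild types at E10.5.

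The 10 genes with the profile most like the mean of the tested macrophage genes over 14 samples, after group means were subtracted, were led by Epha5 (r = 0.94), Ift80 (r = 0.94) and 1110003E01Rik (r = 0.92). With group means kept the list was led by Dtna (r = 0.97), Dmrt2 (r = 0.97) and Timp3 (r = 0.97), and the lists shared 1 gene, Foxp2. Over the 10 samples outside mutant replicates 4 and 5, an alternative added after the data were seen, Edn3 led (r = 0.98), the pan-leukocyte gene Laptm5 was among the 10 (r = 0.96), and 0 genes were shared with the list over 14 samples. For Cx3cr1 alone Rnf24 led (r = 0.93) and, over 10 samples, Ttll5 (r = 0.97). These are descriptions over samples that share libraries.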
